A study of Mus musculus with 23 samples.

Results

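The mitosis genes described here are 44 named genes whose products drive or carry out cell division, from the kinases and cyclins of mitotic entry to the motors, checkpoint proteins and cytokinesis factors. They are given by a list of names drawn up with earlier results of these data known, and all 44 of 44 were measured among the 19938 genes of the arrays. RNA was profiled on Affymetrix arrays from tumour cells and from blood vessel endothelial cells, both separated by flow sorting out of tumours that the murine breast cancer line Py2T had formed in the mammary fat pad of female FVB/N mice. The mice were untreated or received nintedanib, an inhibitor of VEGF, PDGF and FGF receptor kinases, at 50 mg/kg for 7 days (short-term) or 21 days (long-term). Tumour cells gave 3 untreated, 4 short-term and 5 long-term arrays, and endothelial cells gave 3, 3 and 5. Untreated and long-term tumours were of like size, by the study's design, and no untreated group of the size of the short-term tumours was analysed here. Every tumour came from the same cell line, no age of the animals was used here, and the labels call the arrays of a group biological replicates without saying which tumour and endothelial arrays came from the same animal.

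Cells divide by building a spindle of microtubules, attaching every chromosome to it through kinetochores, and separating the copies once the spindle checkpoint is satisfied. Cdk1 with cyclins A and B starts the process, Plk1 and the Aurora kinases organise the spindle, and the anaphase-promoting complex with Cdc20 and Ube2c ends it by degrading the cyclins. Transcripts of these genes accumulate in G2 and M phase under the DREAM repressor, B-Myb and FoxM1, which act through a promoter element called the CHR, often with CCAAT boxes nearby that bind NF-Y. In a tissue, their level therefore follows how many cells are dividing, and in a tumour both the cancer cells and the sprouting vessels contribute.

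The stretches before an annotated start of 6 members are shown because these are the genes with the most evidence of a difference in tumour cells (Nek2, Birc5, Ect2, Arhgap11a) or in endothelial cells (Kif11, Top2a, and again Arhgap11a). They come from RefSeq for build GRCm38.p6 and hold the 200 bases before that start, 5′ to 3′ on the gene's strand. The start used can lie within the gene. The whole Ect2 stretch and the last bases of the Nek2 and Top2a stretches fall inside the RefSeq limits of these genes. Nek2 lies at chr1:191821273-191821472 on the plus strand, Birc5 at chr11:117849037-117849236 on the plus strand, and Ect2, the first of 2 windows listed for it, at chr3:27153879-27154078 on the minus strand. Arhgap11a lies at chr2:113848662-113848861 on the minus strand, Kif11 at chr19:37376182-37376381 on the plus strand, and Top2a at chr11:99024190-99024389 on the minus strand. Capitals mark the CHR letters TTTGAA or TTCGAA and the letters CCAAT, each on either strand, so that TTCAAA and ATTGG are the same motifs read from the other strand.
Nek2: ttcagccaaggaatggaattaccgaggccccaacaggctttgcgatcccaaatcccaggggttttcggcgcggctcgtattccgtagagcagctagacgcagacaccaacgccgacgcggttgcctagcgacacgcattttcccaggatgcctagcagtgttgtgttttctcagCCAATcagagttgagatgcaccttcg
Birc5: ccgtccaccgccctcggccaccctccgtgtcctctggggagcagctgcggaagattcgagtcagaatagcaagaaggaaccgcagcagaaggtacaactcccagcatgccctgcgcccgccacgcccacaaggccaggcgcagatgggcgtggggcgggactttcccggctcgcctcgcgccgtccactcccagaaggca
Ect2: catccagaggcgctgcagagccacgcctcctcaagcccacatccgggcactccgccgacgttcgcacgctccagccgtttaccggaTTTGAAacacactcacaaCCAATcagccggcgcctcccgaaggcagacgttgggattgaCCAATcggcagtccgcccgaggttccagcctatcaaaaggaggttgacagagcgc
Arhgap11a: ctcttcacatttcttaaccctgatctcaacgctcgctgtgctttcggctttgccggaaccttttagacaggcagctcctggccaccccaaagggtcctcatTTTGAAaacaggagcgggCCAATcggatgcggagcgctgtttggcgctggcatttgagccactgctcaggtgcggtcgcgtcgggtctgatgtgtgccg
Kif11: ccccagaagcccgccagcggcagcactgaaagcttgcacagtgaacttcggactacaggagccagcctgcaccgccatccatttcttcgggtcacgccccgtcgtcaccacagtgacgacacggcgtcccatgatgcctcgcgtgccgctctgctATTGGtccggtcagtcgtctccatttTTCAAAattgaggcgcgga
Top2a: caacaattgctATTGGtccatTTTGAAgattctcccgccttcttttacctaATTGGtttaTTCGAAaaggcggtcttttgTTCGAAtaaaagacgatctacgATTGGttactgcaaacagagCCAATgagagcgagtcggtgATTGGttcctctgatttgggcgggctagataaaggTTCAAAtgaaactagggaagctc

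The Top2a stretch held several copies of each motif, Ect2, Arhgap11a and Kif11 held both motifs, Nek2 held CCAAT alone, and Birc5 held neither in these bases. A window of 300 bases, reaching from 250 before the start to 50 after it, was searched for 39 RefSeq promoters of 37 members. A CHR was present in 31 of the 39 (79.5%), against 19.2% of all 32851 promoters in the same table. Within 100 bases before to 50 after the start it was present in 74.4% of the member promoters and 8.59% of all. CCAAT was found in 71.8% of member windows and 37.4% of all, and both motifs together in 66.7% and 7.52%. The member windows were richer in G and C, with a median of 59.0% against 52.7%. The 8 genes without these CHR letters in their window were Birc5, Cenpe, Kif18a, Mad2l1, Melk, Nek2, Nuf2 and Nusap1. These are matches of letters, and no binding was measured.

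**Figure D1:**
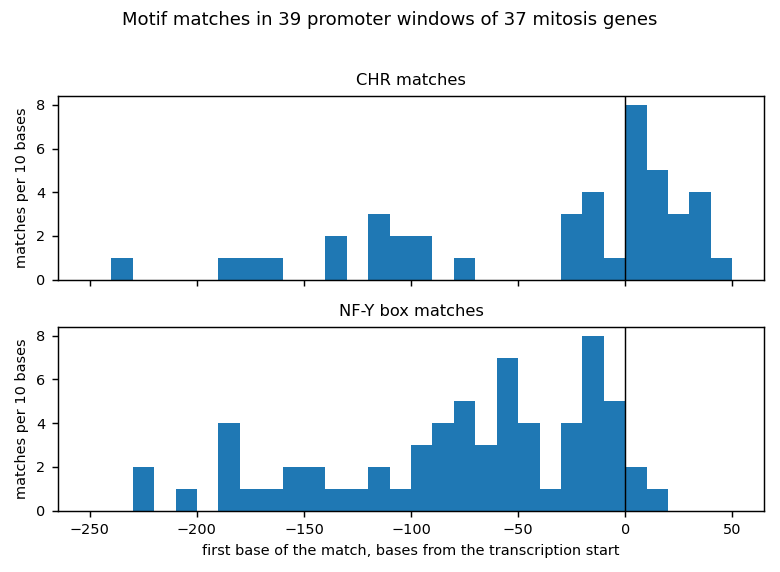
Motif matches in the 39 promoter windows, as matches per 10 bases (y axis) by the distance of the match's first base from the annotated start (x axis, bases), for the CHR (upper) and the NF-Y box CCAAT (lower). CHR matches were present in 31 of the windows and gather around the start, and CCAAT matches, in 28 windows, lie mostly before it.

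The deposited values are log2 signals after RMA normalization, so each difference below is a log2 difference relative to the other transcripts on the array, given with its standard error (SE) from limma. Adjusted p-values are Benjamini-Hochberg values over all 19938 genes, and a gene is called changed where the value is under 0.05. In sorted bulk samples, fewer cells in mitosis and less of these transcripts per cell cannot be told apart. The 10 endothelial marker genes averaged 10.02 to 10.63 in every endothelial array and 3.84 to 4.28 in every tumour array, a separation of all arrays by cell type. The 6 epithelial or tumour markers separated the cells less well, at 6.98 to 7.67 in tumour arrays and 5.44 to 8.45 in endothelial arrays, with the highest value in long-term endothelial replicate 4. The 18 macrophage markers averaged 4.23 to 5.01 in tumour arrays but 4.55 to 7.58 in endothelial arrays. The 17 genes listed as isolation stress genes, among them immediate early genes, were also uneven between the groups, as given beside the results they moved with. The name is that of the list, and what changed these genes was not tested.

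In tumour cells the average of the 44 genes was lowest after short-term treatment and highest after long-term treatment. The mean log2 signal over the members was 6.23, 6.40 and 6.34 in the untreated arrays, 5.91, 6.01, 5.76 and 6.13 in the short-term arrays, and 6.35, 6.87, 6.96, 7.11 and 6.11 in the long-term arrays. All 4 short-term arrays were thus below all 3 untreated ones, whereas long-term replicate 5 lay inside the short-term range. For 38 of the 44 genes the group means ran in the order short-term, untreated, long-term from low to high, and short-term was the lowest of the 3 for 41 genes. In endothelial cells the mean over the members was 5.98, 5.69 and 6.13 in untreated arrays, 4.95, 5.08 and 5.20 in short-term arrays, and 5.10, 5.26, 5.77, 5.94 and 5.43 in long-term arrays. Here 38 of 44 genes ran from short-term through long-term to untreated, so short-term was again the low point while untreated was the high point. The share of all genes in either order was not counted.

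**Figure D2:**
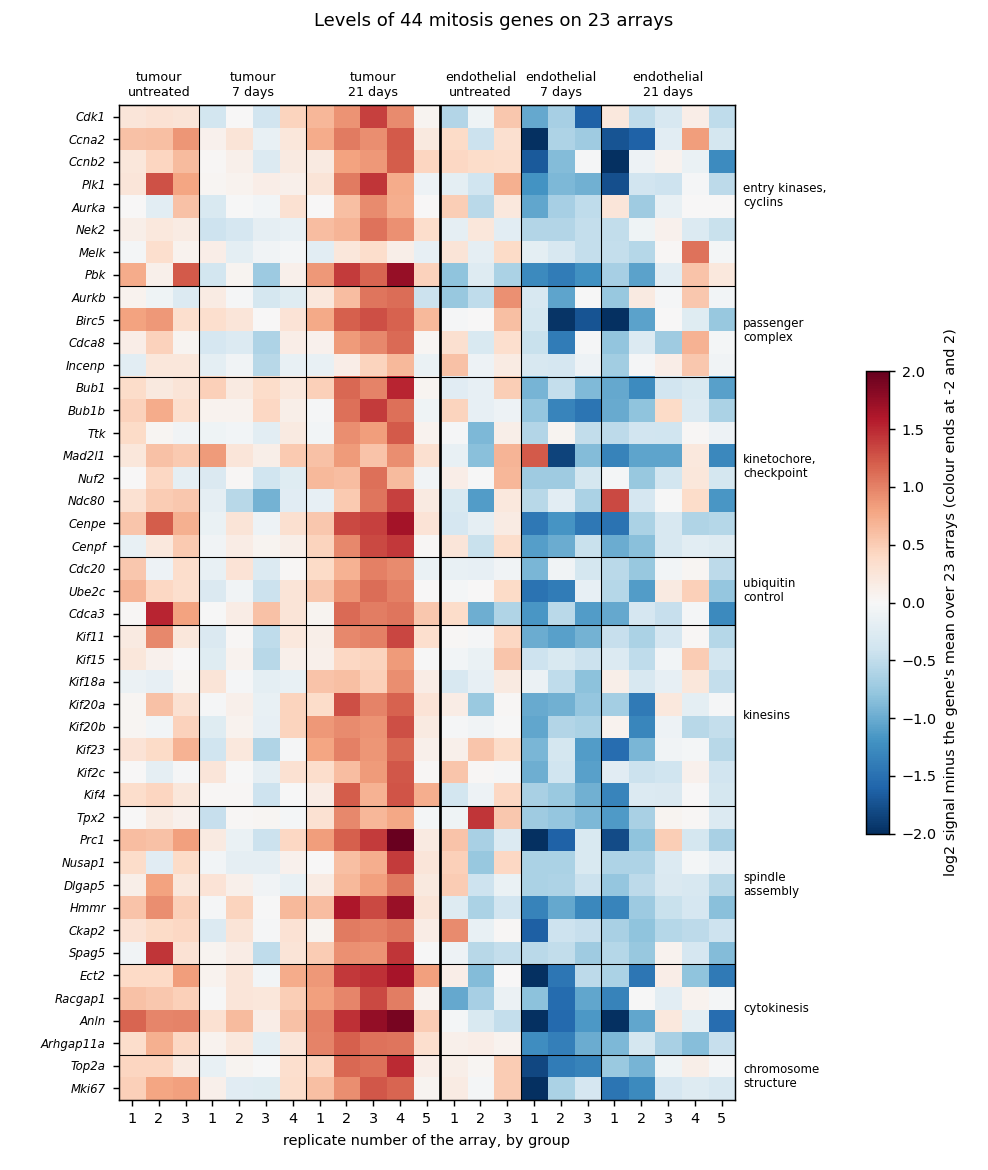
Log2 signal of each mitosis gene (rows, grouped by role) on each of the 23 arrays (columns, grouped by cell type and treatment), minus the gene's own mean over the arrays, with red above and blue below that mean. The short-term endothelial arrays, with member means from 4.95 to 5.20, are mostly blue, and long-term tumour replicates 2 to 4, with means from 6.87 to 7.11, are mostly red.

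Long-term against short-term treatment gave the only treatment comparison within a cell type in which members passed the test. Of the 44 genes, 6 were called higher in long-term tumour cells, against 0.622% of all genes called higher in the same comparison, and none was called lower. These were Nek2, Birc5, Arhgap11a, Ect2, Pbk and Kif23. The fitted difference was positive for 44 of 44 members, with a median of 0.74 beside -0.00 over all genes, and 38 had an unadjusted p under 0.05 in that direction (6.42% of all genes did). The ranges of the groups did not overlap for 8 members (2.94% of all genes). The 6 calls fell in some of the roles only. They were 2 of 8 entry kinases and cyclins, 1 of 4 passenger complex genes, 1 of 8 kinesins and 2 of 4 cytokinesis genes. Calls were absent from the others, at 0 of 8 kinetochore and checkpoint, 0 of 3 ubiquitin, 0 of 7 spindle assembly and 0 of 2 chromosome structure genes.

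Nek2, a kinase that separates the centrosomes before the spindle forms, had the smallest p. Its log2 signal was 4.44, 4.52, 4.67 and 4.70 in short-term tumour cells and 5.47, 5.53, 5.93, 5.77 and 5.20 in long-term tumour cells, with 4.97, 5.07 and 5.02 in untreated ones. The 3 groups did not overlap at any point. It rose from short-term to long-term cells (log2 difference 1.00 ± 0.13 SE, limma adjusted p = 0.003997). Pbk, a mitotic kinase that Cdk1 activates, rose by 1.36 ± 0.28, or 2.56-fold (limma adjusted p = 0.04077), the largest difference of the 44. It read 4.24, 4.65, 3.87 and 4.71 in short-term and 5.46, 5.997, 5.76, 6.34 and 5.06 in long-term cells, while untreated cells, at 5.33, 4.70 and 5.82, overlapped both. Both genes were dim, with mean levels at percentiles 49.4 (Nek2) and 45.6 (Pbk) of all genes. The alternative that left out genes under percentile 50 therefore held neither of them.

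Of the other kinases and cyclins of mitotic entry, none passed. Cdk1, the kinase that commits a cell to mitosis, read 7.33, 7.71, 7.32 and 8.15 in short-term cells and 8.36, 8.60, 9.07, 8.64 and 7.75 in long-term cells. The difference of 0.86 ± 0.23 gave a limma adjusted p of 0.1179, and the groups overlapped through long-term replicate 5. Ccnb2, a B-type cyclin, read 7.62, 7.71, 7.33 and 7.78 against 7.78, 8.41, 8.47, 8.81 and 8.03, which did not overlap (difference 0.69 ± 0.18, limma adjusted p = 0.1051). Plk1, which drives centrosome maturation and spindle assembly, was tight in short-term cells at 6.74, 6.77, 6.83 and 6.80 and wide in long-term cells at 6.96, 7.74, 8.13, 7.45 and 6.60, for a difference of 0.59 ± 0.28. Aurka, the Aurora kinase of the spindle poles, had a difference of 0.47 ± 0.22, and Melk had the smallest of all members at 0.11 ± 0.13. Neither passed the test.

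In the chromosomal passenger complex, which corrects faulty attachments and then directs cytokinesis, Birc5 (survivin) rose by 0.80 ± 0.15 (limma adjusted p = 0.02939). It read 7.74, 7.66, 7.41 and 7.68 in short-term cells and 8.16, 8.60, 8.69, 8.59 and 8.05 in long-term cells, with no overlap. Aurkb, the kinase of that complex, read 6.37, 6.19, 5.85 and 5.97 against 6.42, 6.82, 7.27, 7.32 and 5.77. Long-term replicate 5 was the lowest of those 9 arrays, and the difference of 0.63 ± 0.27 did not pass. Of the kinetochore genes, Ndc80, which binds microtubule ends, had the largest difference at 1.07 ± 0.28 (limma adjusted p = 0.09754). Cenpe, the kinetochore motor, had a difference of 0.95 ± 0.27 and Bub1, a checkpoint kinase, one of 0.53 ± 0.23. Mad2l1, which holds back Cdc20 until chromosomes are attached, had the smallest difference of the kinetochore genes at 0.22 ± 0.16.

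The cytokinesis genes gave both Ect2, an exchange factor that starts contraction of the cleavage furrow, and Arhgap11a, a GTPase-activating protein. Ect2 read 5.99, 6.16, 5.87 and 6.66 in short-term and 6.79, 7.34, 7.39, 7.56 and 6.74 in long-term cells, and rose by 0.99 ± 0.20 (limma adjusted p = 0.03991). Arhgap11a read 5.33, 5.46, 5.07 and 5.50 in short-term and 6.24, 6.45, 6.34, 6.33 and 5.59 in long-term cells, and rose by 0.85 ± 0.17 (limma adjusted p = 0.03103). Kif23, the kinesin that bundles the central spindle with Racgap1, rose by 0.99 ± 0.21 (limma adjusted p = 0.04847), although its highest short-term value of 6.26 exceeded its lowest long-term value of 6.16. The other 7 kinesins had differences from 0.52 to 0.90 and were not called. Cdc20, the activator of the anaphase-promoting complex, had a difference of 0.61 ± 0.22 and Ube2c, its ubiquitin-conjugating enzyme, one of 0.85 ± 0.21. Mki67, the proliferation marker Ki-67, and Top2a, the topoisomerase that untangles sister chromosomes, had nearly equal differences of 0.80 ± 0.22 and 0.80 ± 0.23, neither called.

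**Figure D3:**
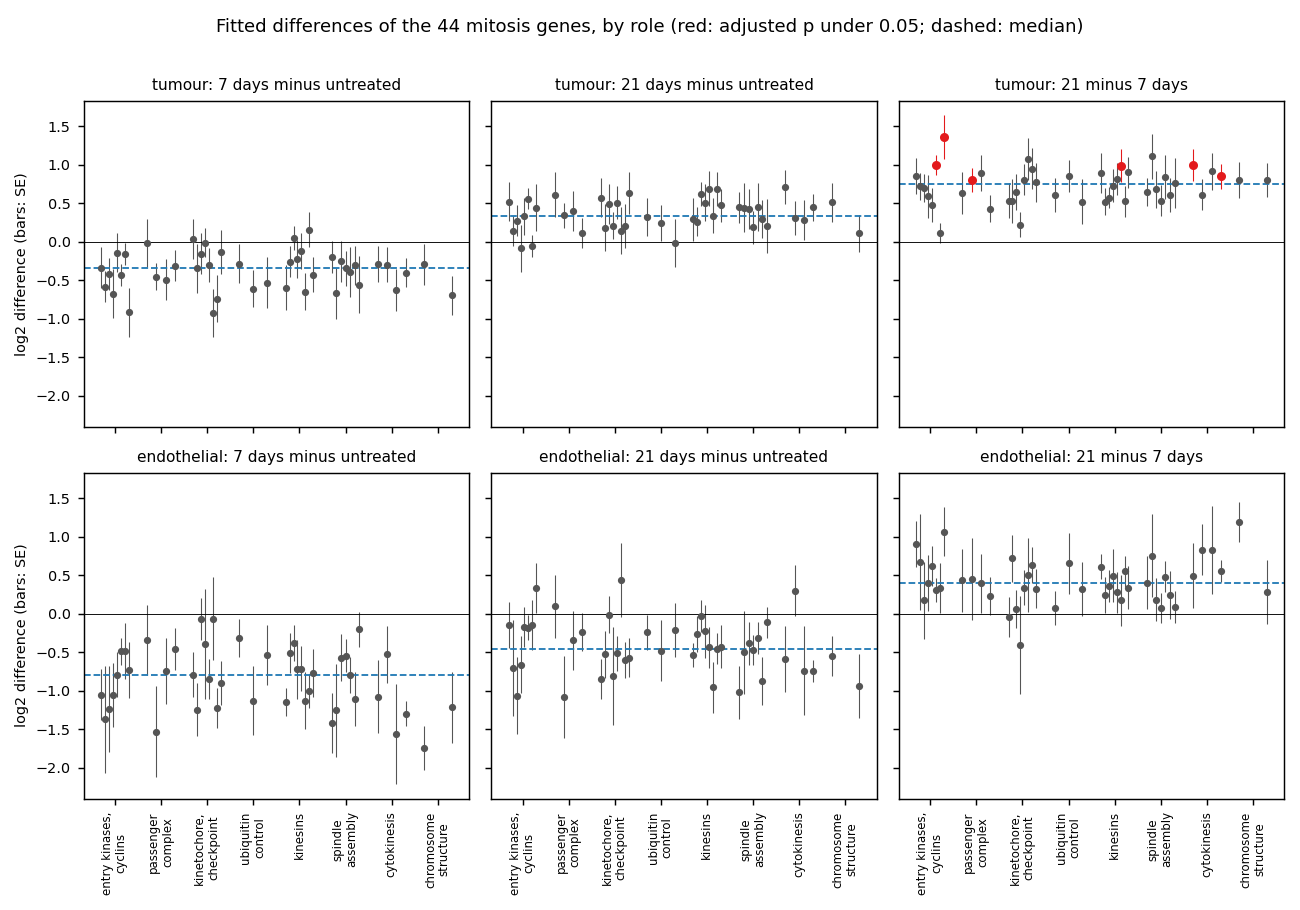
Log2 difference (y axis) of each mitosis gene (points with bars of 1 SE), grouped by role along the x axis, in 3 treatment comparisons in tumour cells (upper row) and in endothelial cells (lower row), where red marks an adjusted p under 0.05 and the dashed line is the median of the members. The 6 red points are in long-term against short-term tumour cells, where the differences run from 0.11 to 1.36, and those in short-term against untreated endothelial cells run from -1.74 to -0.07.

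The 5 long-term tumour arrays were unequal. Replicates 2, 3 and 4 exceeded the whole short-term range for 44, 43 and 43 members, replicate 1 did so for 29 and replicate 5 for only 10. These counts were not made over all genes. Replicate 4 was the highest of the group for 28 genes and replicate 5 the lowest for 32. With replicate 5 left out, 21 members were called instead of 6. Without long-term replicate 2, 3 or 4, or without short-term replicate 1 or 3, 1 member was called, and without short-term replicate 2 or 4, 2 were. The shares of all genes called in these fits were not counted, so the counts do not single out the members. Nek2 was called in 12 of 12 fits that left out an array (adjusted p up to 0.01841 by limma), Ect2 in 6, Birc5 in 5, Arhgap11a in 4, Pbk in 3 and Kif23 in 2.

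The isolation stress genes moved the other way from the members. Their mean was 9.29, 8.80 and 8.89 in untreated tumour arrays, 9.96, 9.65, 9.91 and 9.60 in short-term arrays, and 9.79, 9.12, 9.37, 9.18 and 9.59 in long-term arrays. The long-term arrays with the lowest mitosis means, replicates 1 and 5, had the highest stress means of that group. Of the 17 stress genes, 17 had negative differences in long-term against short-term cells, with a median of -0.40, and 1 was called lower. With each array's stress mean as a covariate, 0 members were called and the median member difference was 0.38. Nek2 then had an adjusted p of 0.05511 by limma. With the macrophage mean as a covariate 1 member was called, Nek2 (limma adjusted p = 0.0253). The part of isolation stress in the difference was not tested.

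Short-term treatment against untreated tumour cells gave no call among the members, where 0.507% of all genes were called by limma. The fitted difference was negative for 41 of 44 members, with a median of -0.34 beside -0.01 over all genes. At an unadjusted p under 0.05, 10 members were lower (4.83% of all genes were), and 15 members had short-term arrays all below the untreated ones (4.9% of all genes). Ndc80 read 6.62, 6.82 and 6.86 in untreated and 6.13, 5.76, 5.37 and 6.09 in short-term cells, with no overlap and a difference of -0.93 ± 0.31 (limma adjusted p = 0.2603). Ccna2, the cyclin of S phase and mitotic entry, read 8.66, 8.69 and 8.97 against 8.17, 8.34, 7.92 and 8.31, a difference of -0.59 ± 0.20 (limma adjusted p = 0.2679). Nek2 had the smallest adjusted p of the members, 0.2432 by limma, with a difference of -0.44 ± 0.14. Mki67 read 7.63, 7.94 and 7.97 against 7.26, 6.93, 6.91 and 7.51, and Ube2c 8.54, 8.27 and 8.19 against 7.56, 7.79, 7.43 and 8.11. Both pairs of groups were apart, but neither gene passed.

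The stress genes were positive for 17 of 17 in the same comparison, with a median of 0.79 and 3 called higher. With their mean as a covariate the median member difference turned to 0.36, the sign turned for 14 of 18 members compared singly, among them Ndc80, Ccna2 and Mki67, and again no member was called. The stress means of these groups did not overlap, at 8.80 to 9.29 in untreated and 9.60 to 9.96 in short-term arrays. The covariate was thus largely tied to treatment, and the adjusted differences rest on extrapolation. The part of the stress genes in the member differences was not tested.

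Long-term treatment against untreated, size-matched tumour cells also gave no call among the members, with 0.0903% of all genes called by limma. The difference was positive for 41 of 44, with a median of 0.34. At an unadjusted p under 0.05, 11 members were higher (5.97% of all genes), but only 3 had long-term arrays all above the untreated ones (2.99%). Kif18a, a kinesin that damps chromosome movement at the metaphase plate, read 4.51, 4.46 and 4.67 in untreated and 5.19, 5.22, 5.09, 5.55 and 4.78 in long-term cells, with no overlap and a difference of 0.62 ± 0.15 (limma adjusted p = 0.1878). Nek2 had a difference of 0.56 ± 0.14 (limma adjusted p = 0.1956) and Ect2 of 0.70 ± 0.22 (limma adjusted p = 0.3105). Kinesins had the most genes with an unadjusted p under 0.05, 4 of 8, and Plk1, Melk and Cdca3 were the members with negative differences. The stress genes were positive here as well, for 17 of 17 with a median of 0.34, and with their mean as a covariate 1 member was called and the median member difference was 0.72.

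**Figure D4:**
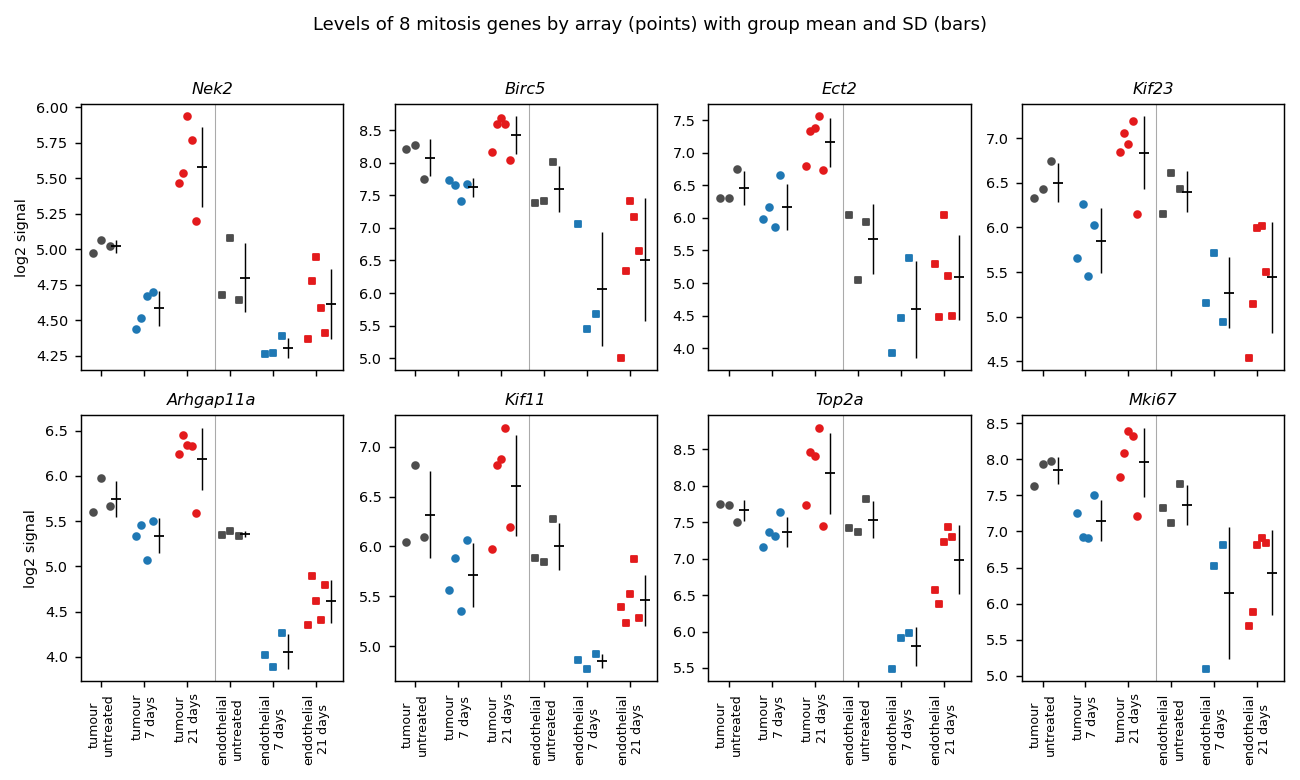
Log2 signal (y axis) of 8 mitosis genes on each array (points) by cell type and treatment, with the group mean as a dash and 1 SD as a bar. Nek2 runs from 4.44 to 4.70 in short-term and from 5.20 to 5.93 in long-term tumour cells, and Top2a from 5.49 to 5.98 in short-term and from 7.36 to 7.82 in untreated endothelial cells.

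In endothelial cells the members were lowest after short-term treatment, but no gene of the whole table passed the test. The fitted difference from untreated cells was negative for 44 of 44 members, with a median of -0.80 beside 0.06 over all genes, and 0 were called (limma called 0% of all genes, while 1629 were past 0.05 without adjustment). At that unadjusted threshold 26 members were lower (3.24% of all genes), and 30 members had their 3 short-term arrays below all 3 untreated ones (3.96%). Each short-term array was below the whole untreated range for 35 to 38 of the 44 genes, a count not made over all genes. When all 23 arrays shared 1 estimate of the spread, 2 members were called lower, Top2a and Arhgap11a (limma adjusted p = 0.008762 and 0.003786). The share of all genes called in that fit was not counted. Fitted apart, the median residual SD over all genes was 0.156 in tumour and 0.255 in endothelial cells. The shared estimate can thus be too small for endothelial arrays.

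Top2a had the largest difference. It read 7.43, 7.36 and 7.82 in untreated and 5.49, 5.92 and 5.98 in short-term endothelial cells, a 3.35-fold gap with no overlap (difference -1.74 ± 0.29, limma adjusted p = 0.2442). Top2a has 2 clusters, and the one not used had a mean of 3.31 over all arrays. With both averaged its difference was -0.95 (limma adjusted p = 0.2921). Arhgap11a was the tightest, at 5.35, 5.39 and 5.33 against 4.02, 3.89 and 4.26 (difference -1.30 ± 0.16, limma adjusted p = 0.1935). Kif11, the motor that pushes the spindle poles apart, read 5.89, 5.84 and 6.27 against 4.87, 4.78 and 4.92 (difference -1.15 ± 0.18, limma adjusted p = 0.2442). In each of these genes every short-term array was low.

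Among the kinases and cyclins, Cdk1 read 7.12, 7.62 and 8.24 in untreated and 6.68, 7.04 and 6.09 in short-term cells, which did not overlap (difference -1.05 ± 0.33). Ccnb2 was uniform in untreated cells at 8.02, 7.97 and 7.95 and scattered in short-term cells at 5.92, 6.73 and 7.58 (difference -1.24 ± 0.56). Plk1 read 6.51, 6.30 and 7.41 against 5.51, 5.80 and 5.73, and Aurka 6.497, 5.47 and 6.21 against 4.96, 5.34 and 5.50, so that only Aurka overlapped. Of the passenger complex, Birc5 read 7.38, 7.41 and 8.004 against 7.06, 5.45 and 5.68 (difference -1.53 ± 0.59), while Aurkb, at 5.45, 5.70 and 7.13 against 5.89, 5.16 and 6.20, overlapped (difference -0.34 ± 0.46). Neither passed the test.

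Of the kinetochore and checkpoint genes, 5 of 8 were lower at an unadjusted p under 0.05 (3.24% of all genes were). The count was also 5 of 8 for the entry kinases and cyclins and for the kinesins. Cenpe read 5.58, 5.74 and 6.08 against 4.49, 4.74 and 4.48 (difference -1.23 ± 0.26, limma adjusted p = 0.3472), and Bub1 4.29, 4.35 and 4.999 against 3.59, 4.04 and 3.62. Ndc80, with the smallest difference of the 44, and Mad2l1 did not separate, at -0.07 ± 0.54 and -0.40 ± 0.71. Mad2l1 had both the highest and the lowest value of those 6 arrays among the short-term ones, at 7.62 and 4.54. Mki67 read 7.32, 7.12 and 7.66 against 5.10, 6.52 and 6.81, and Kif23 6.16, 6.61 and 6.43 against 5.15, 5.71 and 4.94, both without overlap. Cdc20 overlapped, at 6.21, 6.20 and 6.30 against 5.45, 6.29 and 6.01 (difference -0.32 ± 0.25).

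Macrophage markers and stress genes differed between the same arrays. The macrophage mean was 7.58, 5.48 and 5.49 in untreated, 4.55, 4.89 and 4.88 in short-term, and 4.90, 5.27, 7.55, 6.71 and 6.07 in long-term endothelial arrays. It was negative for 17 of 18 markers in short-term against untreated cells, with a median of -1.34 and 0 called. Without the 3 endothelial arrays with a macrophage mean above 6.5, which are untreated replicate 1 and long-term replicates 3 and 4, the median member difference was -0.81, with Top2a at -1.80 and Kif11 at -1.20. The untreated arrays that remained, at 5.48 and 5.49, still had higher macrophage means than the short-term arrays. With the macrophage mean as a covariate the median was -0.57, with Top2a at -1.46 and Kif11 at -1.08. The part of macrophages in the difference was not tested. The stress mean was 8.49, 8.22 and 8.21 in untreated, 9.33, 9.03 and 9.04 in short-term, and 9.08, 9.15, 9.30, 9.57 and 8.80 in long-term endothelial arrays. With the stress mean as a covariate the median member difference was -1.21. The stress means of untreated and short-term arrays did not overlap, so this adjusted difference rests on extrapolation. The part of stress in the result was not tested. Of the 10 endothelial markers 0 were called in short-term against untreated cells (2 at an unadjusted p under 0.05), and their median difference was -0.07.

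Long-term endothelial cells lay between the other groups. Against untreated cells 40 of 44 members had a negative difference, with a median of -0.46, and 0 were called (limma called 0% of all genes, and 833 were past 0.05 without adjustment). At that unadjusted threshold 12 members were lower (1.59% of all genes), and 6 did not overlap (1.36%). The stress genes were positive for 17 of 17 in this comparison, with a median of 0.81 and 11 past that threshold, and with their mean as a covariate the median member difference was -0.88. The stress means of these groups did not overlap either, so this value too rests on extrapolation. The part of the stress genes in the member differences was not tested. Arhgap11a read 4.36, 4.90, 4.61, 4.41 and 4.79 in long-term cells, all below the untreated arrays (difference -0.75 ± 0.14, limma adjusted p = 0.505). Bub1 read 3.49, 3.26, 4.13, 4.21 and 3.42, also below them all (difference -0.85 ± 0.26). These are low readings of a dim gene, whose mean level is at percentile 44.1 of all genes. Kif11 read 5.39, 5.23, 5.52, 5.88 and 5.29, overlapping the untreated range through replicate 4 (difference -0.54 ± 0.16). Birc5 had the most negative difference, -1.09 ± 0.53, with values of 5.01, 6.33, 7.41, 7.17 and 6.65 that were the most scattered of these genes.

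The same long-term arrays were set against short-term endothelial cells, and the difference was positive for 42 of 44 members with a median of 0.40 and 0 calls (limma called 0% of all genes, and 1875 were past 0.05 without adjustment). At that threshold 11 members were higher (4.09% of all genes), and 5 did not overlap (2%). Top2a read 6.58, 6.38, 7.23, 7.43 and 7.29 in long-term cells, all above the short-term arrays, with a difference of 1.19 ± 0.26 (limma adjusted p = 0.3409). With all 23 arrays in the fit it was called (limma adjusted p = 0.03567), and with its 2 clusters averaged the difference was 0.58 (limma adjusted p = 0.3968). The fit of all 23 arrays shares 1 spread between the cell types, and its share of all genes called was not counted. Cdk1, at 7.91, 7.20, 7.39, 7.84 and 7.20, was above the short-term arrays too (difference 0.90 ± 0.30). The macrophage markers were positive for 17 of 18, with a median of 1.25. The median member difference was 0.17 without the 3 endothelial arrays high in macrophage markers and 0.14 with the macrophage mean as a covariate.

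The 5 long-term endothelial arrays were also unequal. Replicates 1, 2 and 5 lay below the whole untreated range for 34, 32 and 30 members, and replicates 3 and 4 for 14 and 11. Again, all genes were not counted in this way. Replicate 4 was the highest of the group for 26 genes. Replicates 3 and 4 were also the arrays with the highest macrophage means of that group, and replicate 4 had the highest epithelial or tumour marker mean of all endothelial arrays, at 8.45. The part of these other cells in the member values was not tested.

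**Figure D5:**
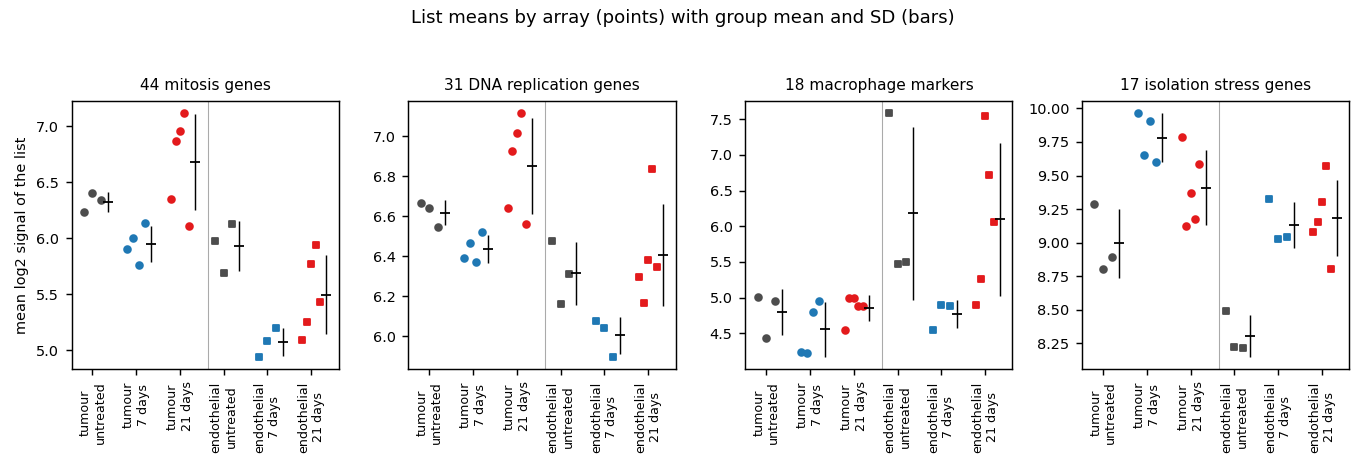
Mean log2 signal (y axis) of the 44 mitosis genes, 31 DNA replication genes, 18 macrophage markers and 17 isolation stress genes on each array (points), by cell type and treatment, with the group mean as a dash and 1 SD as a bar. The mitosis mean is 4.95 to 5.20 on the short-term endothelial arrays and 5.69 to 6.13 on the untreated ones, where the macrophage mean runs from 5.48 to 7.58.

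Set against tumour cells of the same treatment, more members were lower in endothelial cells in the treated groups than in the untreated one. In untreated mice 5 of 44 members were lower in endothelial cells by the limma test (10.2% of all genes were lower), with a median difference of -0.35. These were Racgap1, the partner of Kif23, at -1.14, Hmmr, a spindle-binding protein, at -1.08, Pbk at -1.25, Cdca3 at -1.19 and Cenpe at -0.94. After short-term treatment 25 were lower (17% of all genes), with a median of -0.89, and after long-term treatment 38 were lower (16.3% of all genes), with a median of -1.21. The untreated count was 2 without untreated tumour replicate 2 or 3 or endothelial replicate 1, 1 without endothelial replicate 2 and 3 without endothelial replicate 3, and the short-term count was 16 without endothelial replicate 1. The share of members was close to that of all genes in untreated mice and above it in both treated groups. The counts rest on unequal numbers of endothelial and tumour arrays: 3 and 3 untreated, 3 and 4 short-term, 5 and 5 long-term. They are therefore not directly comparable. Cytokinesis genes had the largest differences after long-term treatment, with 4 of 4 lower and a median of -1.83: Anln, an actin-binding scaffold of the furrow, at -2.34, Ect2 at -2.08 and Arhgap11a at -1.58 ± 0.15 (limma adjusted p = 7.503e-08). In the passenger complex 2 of 4 were lower, among them Birc5 at -1.90 ± 0.35, while Aurkb at -0.54 ± 0.32 was not called. Melk, at -0.06 ± 0.22, was nearest to equal.

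Whether the treatment effect itself differed between the cell types was tested as an interaction, and no member passed. For the long-term effect, endothelial minus tumour, 43 of 44 members were negative with a median of -0.78, 0 were called (limma called 0% of all genes, and 1063 were past 0.05 without adjustment), and 19 were lower at an unadjusted p under 0.05 (2.55% of all genes). Arhgap11a had the smallest adjusted p, 0.207 by limma, at -1.19 ± 0.24. Without long-term tumour replicate 5, 1 member was called. For the short-term effect 40 members were negative with a median of -0.50, 0 were called (0.0953% of all genes), and 4 were lower at the unadjusted threshold (4.22%), led by Top2a at -1.45 ± 0.41 (limma adjusted p = 0.2269). For long-term against short-term, 37 were negative with a median of -0.33 and 0 were called (0.0351% of all genes), with 1 lower at the unadjusted threshold (5.67%). The difference between the cell types in Nek2, the gene with the clearest change in tumour cells, was -0.69 ± 0.20 (limma adjusted p = 0.2474).

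Other genes of the division programme were counted by lists in long-term against short-term tumour cells, where 0.622% of all genes were called higher and 6.42% were higher at an unadjusted p under 0.05. Of 42 other mitotic genes, 4 were called higher and 40 had positive differences, with a median of 0.54. Among them were Cenph, a kinetochore subunit (1.13 ± 0.21, limma adjusted p = 0.02422), Cdc25c, the phosphatase that activates Cdk1 (1.12 ± 0.21, limma adjusted p = 0.02849), and Plk4, the kinase of centriole duplication (0.70 ± 0.14, limma adjusted p = 0.0365). Of 31 DNA replication genes 0 were called and 24 were higher at an unadjusted p under 0.05, with a median of 0.44 and Mcm7, a subunit of the replicative helicase, at 0.44 ± 0.10 (limma adjusted p = 0.05242). Of 19 DREAM, B-Myb and FoxM1 regulators 1 was called higher, the repressor E2f7 (0.78 ± 0.15, limma adjusted p = 0.03034), and Foxm1 had a difference of 0.61 ± 0.24 that did not pass. Of 14 G1 cyclins and CDK inhibitors 2 were called higher, and both were inhibitors: Cdkn2c (1.11 ± 0.18, limma adjusted p = 0.01631) and Cdkn1b (0.58 ± 0.12, limma adjusted p = 0.04057). The 15 core subunits of the anaphase-promoting complex had a median of 0.08 and 0 calls, with 4 higher at an unadjusted p under 0.05.

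In short-term against untreated endothelial cells none of these lists had a called gene, where limma called 0% of all genes. At an unadjusted p under 0.05, 12 of 42 other mitotic genes and 4 of 31 DNA replication genes were lower (3.24% of all genes). So were 2 of 19 DREAM, B-Myb and FoxM1 regulators, 2 of 14 G1 cyclins and CDK inhibitors and 0 of 15 anaphase-promoting complex subunits. The median was -0.34 over the other mitotic genes, -0.29 over the DNA replication genes and 0.04 over the subunits of the anaphase-promoting complex, beside -0.80 over the 44 members. Foxm1 had a difference of -1.70 ± 0.54 and Rrm1, a subunit of ribonucleotide reductase, one of -1.03 ± 0.25 (limma adjusted p = 0.4095).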

How the data were processed

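RNA from sorted tumour and endothelial cells was measured on 23 arrays. The authors deposited log2 values from RMA in the oligo package, per the submitters' processing notes, and versions were not given in the sources used here. Of 35556 transcript clusters, 21789 named 1 gene in the platform annotation, 1621 named several and 12146 were not listed, and neither of the last groups was used. Symbols were updated through RefSeq for 21698 clusters. Each of 19938 genes was read from its cluster with the highest mean, which mattered for Top2a alone among the members. Differences were fitted with limma 3.58.1 in R 4.3.3, for tumour arrays alone (9 residual degrees of freedom), endothelial arrays alone (8) and, between cell types, all arrays, with no covariates, and the code was tested on simulated data. Arrays were grouped by the labels, and no array was left out. Probe sequences and array dates were not used here. Precision is limited by the number of arrays: the median residual SD of the members was 0.373 in tumour and 0.452 in endothelial cells, against 0.156 and 0.255 over all genes. The members and gene lists were chosen with earlier results of these data known. Per-array values are given for a panel of role representatives and for the 3 members with the smallest p in each treatment comparison. Of the lists of other genes, up to 3 with the smallest p are named. Alternatives were other samples in the fit, array weights, all clusters averaged, dim genes left out, other scalings, a replicate block, marker covariates and each array left out.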

Additional observations from a re-analysis of the deposited data

Results flagged for a closer look

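In groups of 4 or 5 arrays, 63 sets of values, of the members named with values per array and of the mean over all members, were searched for an array far from the others, of which chance marks about 1 in 20, and 3 values stood apart. Plk1 read 4.94 in long-term endothelial replicate 1, where the other arrays of the group ran from 6.18 to 6.68. Cenpe read 4.45 in the same array, against 5.28 to 5.598 in the others. Arhgap11a, one of the genes called higher in long-term than in short-term tumour cells, read 5.59 in long-term tumour replicate 5, against 6.24 to 6.45 in the others.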

How the results depend on the processing

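Of 2150 single values for named members under the alternatives, 66 changed sign, and 0 of these were called in either fit. They include 14 of 18 in short-term against untreated tumour cells with the stress covariate, 5 of 17 in long-term against short-term endothelial cells with the macrophage covariate, and 26 with an array left out. In 45 values a call was lost and in 16 gained. With the isolation stress mean as a covariate, the median member difference in short-term against untreated tumour cells reversed to 0.36, that in long-term against untreated tumour cells was 0.72 with 1 call, and that in long-term against short-term tumour cells was 0.38 with 0 calls. It was -1.21 in short-term and -0.88 in long-term against untreated endothelial cells. Stress means did not overlap between untreated and short-term tumour arrays, nor between untreated and treated endothelial arrays. The adjusted differences of those comparisons rest on extrapolation. The cause was not tested. The 6 calls in long-term against short-term tumour cells became 2 with all arrays in the fit, 1 with the macrophage covariate, and 1 to 21 with an array left out. With all arrays in the fit, 2 members were called in short-term against untreated and 1 in long-term against short-term endothelial cells. That fit gives tumour and endothelial arrays 1 spread, although their spreads differ. Array weights gave 3 calls between untreated and 13 between short-term endothelial and tumour cells. With an array left out these counts ran from 1 to 6 and from 16 to 27, and that of the cell type difference in the long-term effect from 0 to 1. Same-numbered arrays did not deviate together over all genes (correlations from -0.149 to 0.112). In groups this small, that cannot show which arrays came from the same animal. The numbers were not used to pair samples in the main fits. A replicate block gave 23 calls in long-term against short-term tumour cells, where long-term replicate 5 has no partner and so drops out. For this and every other alternative, calls were counted over the members only, not over all genes. Endothelial arrays high in macrophage markers were left out after their values were seen.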
